A study of Mus musculus with 8 samples.

Results

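Genes that release ATP from cells, break nucleotides down outside the cell and handle the resulting adenosine were followed in microglia sorted from spinal cord. The 10 genes were Slc17a9, Panx1, Entpd1, Entpd2, Nt5e, Enpp1, Ada, Adk, Slc29a1 and Slc29a3. They were taken by name, with no threshold on a measured value but with earlier results of these data known, and found by Ensembl identifier among the 54532 genes of the count table. The study compared 4 KI females carrying the knock-in labelled Cd11b-P2X4mCherryIN (mice 513, 526, 528 and 549) with 4 WT females (mice 503, 504, 506 and 527). Each library came from 1 mouse. Both groups went through the same mechanical dissociation, Percoll gradient and sort for live cells with CD11b, low CD45 and no Ly6C, per the labels. The labels name no treatment, disease or age, and they do not say which cells express the knocked-in sequence or how it was made.

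ATP that leaves a cell, through vesicles or through membrane channels, acts on P2X and P2Y receptors until enzymes on cell surfaces remove it. Ectonucleotidases take phosphates off in steps, to ADP, AMP and finally adenosine, which acts on receptors of its own. Nucleoside transporters carry adenosine across membranes, and inside cells it is turned into inosine or back into AMP. Microglia sense nucleotides outside the cell with P2X4 and P2Y12 and are known for carrying the ectonucleotidase CD39.

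Libraries held between 45167483 and 54049801 reads on genes, and a library without a read of a gene allows up to 3 reads, which came to 0.0555 to 0.0664 CPM (reads scaled to a common library total). Such limits cover counting error only and take reads as independent. Both reads of a pair could be counted here, so the limits may be too low. The 10 microglial markers examined were all detected, and their summed level was 32452 to 36651 CPM in KI libraries, against 33833 to 38661 in WT libraries. The summed border-associated macrophage (19.6 CPM), monocyte (10.03), neutrophil (44.3), lymphocyte (3.31) and fibroblast (9.72) markers were highest in KI 528, which is therefore named where it stands apart below. Ly6c2, the gene of the marker that the sort removed, stayed between 0 and 0.436 CPM. P2rx4, the gene of P2X4, averaged 859 ± 62.7 CPM in KI and 793 ± 43.5 in WT with overlapping groups (SD, n = 4 each). Reads of the knocked-in sequence cannot be told from those of the mouse's own gene here, so this level is no check of the genotype labels.

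The 10 genes spanned a wide range of levels per length. The length takes in all annotated exons of a gene, so ratios between genes depend on the annotation. In deposited FPKM, which are scaled to exon length and to the library's total, Entpd1 stood first with a mean of 298 over the 8 libraries (lowest 260.007, highest 331). It ranked at position 162 of the 17015 tested genes with an FPKM, within the top 0.952%. Slc29a3 followed at 116 FPKM (104 to 131) and Slc29a1 at 60.6 (55.1 to 72.4), and none of these 3 overlapped its neighbour in any library. Next came a cluster in which each gene's libraries overlapped those of the next. Enpp1 averaged 5.15 FPKM, Slc17a9 3.85, Ada 2.64, Adk 2.61 and Panx1 1.35. Nt5e, at 0.131 FPKM, lay below all of these in every library. Entpd2 was last at 0.0115 FPKM and its libraries overlapped those of Nt5e. Of the enzymes on the path from ATP to adenosine, the transcript of the first step was thus abundant and that of the last step scarce: the ratio of Entpd1 to Nt5e in FPKM ran from 1608 to 9573 over KI libraries and from 900.3 to 12820.3 over WT libraries. Nt5e held between 11 and 141 reads a library.

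**Figure D1:**
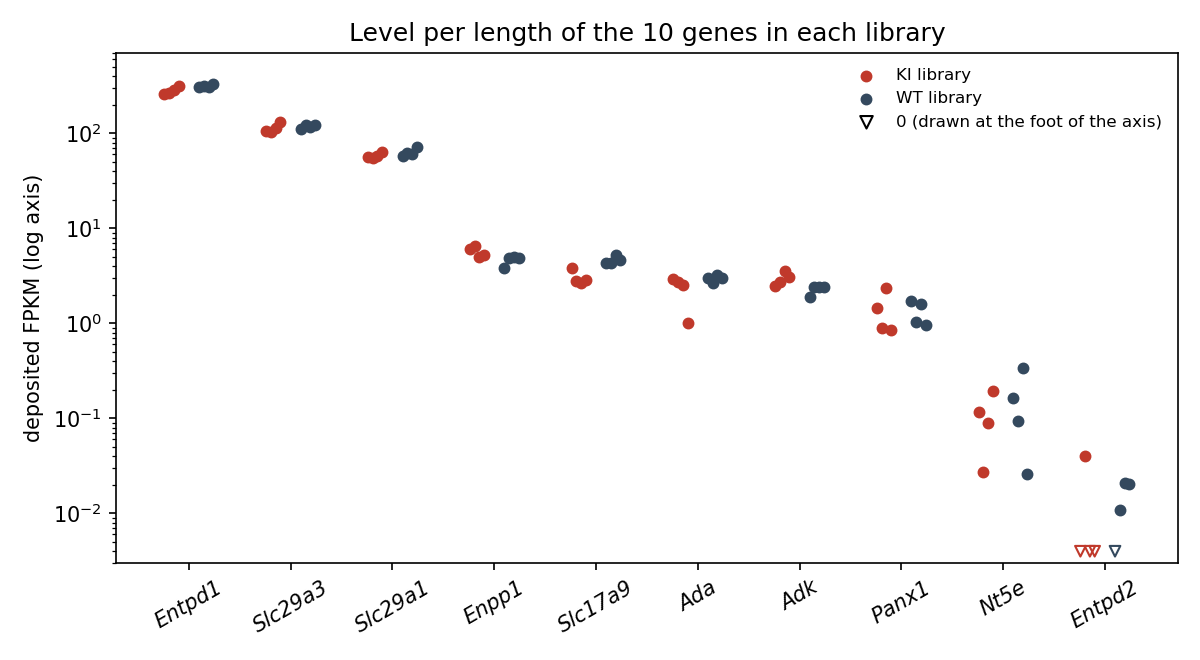
Deposited FPKM of the 10 genes in each library, on a log axis, with KI libraries left of WT libraries and genes ordered by their mean. Entpd1, Slc29a3 and Slc29a1 lie at 55.1 FPKM or more in every library, Nt5e and Entpd2 at 0.340 or less, and open triangles at the foot of the axis mark libraries listed at 0.

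KI was compared with WT for all 17291 genes that passed a filter on low counts, by edgeR's quasi-likelihood test with Benjamini-Hochberg adjustment over those genes. Of the 10 genes 9 passed the filter and were tested, and Entpd2 did not. None of the 9 had an adjusted p under 0.05, nor did any other gene (0 of 17291, 0%). At an unadjusted p under 0.05 were 4 of the 9, with Enpp1 and Adk higher and Slc17a9 and Entpd1 lower in KI, against 7.79% of all genes tested (3.23% higher, 4.56% lower). Only 2 of the 9 were left without KI 513 or KI 526 (Slc17a9 and Adk in both) or without WT 503 (Slc17a9 and Entpd1), and 3 without any other library. The full DESeq2 and likelihood ratio fits each held 3, without Entpd1. Where the mean reached 5 CPM or more, the KI and WT libraries did not overlap in CPM for 3 of 7 of these genes, against 6.05% of 10171 genes. Of the 3, 2 were higher in KI (3.08% of all) and 1 was lower (2.97%). edgeR's likelihood ratio test called 0.243% of the tested genes and none of the 9. The median log2 fold change, KI over WT, was -0.10 over the 9 genes and 0.00 over all genes. In whole sorted populations, fewer cells that use a gene and less RNA per cell cannot be told apart.

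Vesicular release was represented by Slc17a9, the vesicular nucleotide transporter that loads ATP into secretory vesicles and lysosomes (ENSMUSG00000023393, mm10 chromosome 2, 180725263 to 180742280, plus strand). It had 11.6 (KI 513), 8.29 (KI 526), 8.28 (KI 528) and 8.65 CPM (KI 549) in KI libraries, scaled by TMM as are all gene levels in CPM here. In WT libraries it had 12.7 (WT 503), 13.2 (WT 504), 15.8 (WT 506) and 14.2 CPM (WT 527). Every KI library lay below every WT library, with KI 513 nearest to them. The means were 9.20 ± 1.60 CPM in KI and 14.0 ± 1.36 in WT (SD, n = 4 each). The log2 fold change was -0.60 (SE 0.172, 95% interval -0.98 to -0.22), or 0.659-fold (adjusted p = 0.517 by the edgeR quasi-likelihood test). DESeq2, which called 1.26% of the genes it tested, put it at -0.60 as well, with adjusted p = 0.0161, its single call among the 10 genes. That call was lost in 5 of 8 fits that left 1 library out, without KI 526 (adjusted p = 0.0778), KI 528 (0.0904), KI 549 (0.0507), WT 506 (0.124) or WT 527 (0.0830).

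Among tested markers of other cells, oligodendrocyte markers (6 of 6) and erythroid genes (5 of 5) also had negative log2 fold changes. Positive ones were found for 3 of 3 fibroblast, 4 of 5 neuron and 3 of 4 border-associated macrophage markers. Astrocyte (3 above 0, 3 below), endothelial and mural (2 above, 3 below) and monocyte markers (1 above, 1 below) were mixed. The part of any of these cells in the level of Slc17a9 was not tested. The summed oligodendrocyte markers were 148 to 273 CPM in KI libraries and 164 to 284 in WT libraries. The erythroid sum was 96.2 to 306 CPM in KI libraries and 159 to 523 in WT libraries.

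Panx1 encodes pannexin 1, a large-pore membrane channel through which ATP can leave cells (ENSMUSG00000031934, chromosome 9, 15002128 to 15045478, minus strand). KI libraries held 8.47 (KI 513), 5.11 (KI 526), 14.1 (KI 528) and 4.97 CPM (KI 549), against 9.90 (WT 503), 6.14 (WT 504), 9.21 (WT 506) and 5.61 (WT 527) in WT libraries. KI 528 was highest of all, and both groups held libraries near 5 CPM, so the spread within KI (2.83-fold) exceeded any difference of the means, 8.15 ± 4.26 CPM in KI and 7.72 ± 2.15 in WT (SD, n = 4 each). The log2 fold change of 0.08 (95% interval -0.72 to 0.87, adjusted p = 0.981 by edgeR) turned to -0.32 without KI 528. KI 528 also held the most border-associated macrophage, monocyte and neutrophil markers, and their part in its Panx1 level was not tested.

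Entpd1 encodes CD39, the surface enzyme that takes ATP and ADP down to AMP (ENSMUSG00000048120, chromosome 19, 40612366 to 40741602, plus strand). It had 1415 (KI 513), 1387 (KI 526), 1599.65 (KI 528) and 1682 CPM (KI 549) in KI libraries, against 1636 (WT 503), 1732 (WT 504), 1639 (WT 506) and 1793 CPM (WT 527) in WT libraries. KI 513, KI 526 and KI 528 lay below all WT libraries, whereas KI 549 lay among them. The means were 1521 ± 143 CPM in KI and 1700.2 ± 76.1 in WT (SD, n = 4 each), a log2 fold change of -0.16 (SE 0.0701, 95% interval -0.32 to -0.00). It did not pass the edgeR test after adjustment (adjusted p = 0.631).

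Entpd2 encodes a related surface enzyme that prefers ATP to ADP (ENSMUSG00000015085, chromosome 2, 25395874 to 25401321, plus strand). It had 4 reads in KI 526 and 0 in the other KI libraries, against 1, 2 and 2 reads in WT 504, WT 506 and WT 527 and 0 in WT 503. With so few reads, of which both of a pair could be counted, no fold change is given. Of its exon bases 612 are shared with Npdc1 on the same strand, and reads in a stretch shared by genes are assigned to neither under the stated counting.

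The upstream sequences of both enzymes are shown because they belong to the most and the least abundant of the 10 transcripts. They are RefSeq's (GRCm38.p6), run from 250 bases before the start to the base before it on the plus strand, and have CG dinucleotides in capitals. In the RefSeq table Entpd1 has 2 starts, with windows at chr19:40612116-40612365 (upstream) and chr19:40659520-40659769 (downstream), and Entpd2 has 1, with its window at chr2:25395624-25395873.
Entpd1 upstream start: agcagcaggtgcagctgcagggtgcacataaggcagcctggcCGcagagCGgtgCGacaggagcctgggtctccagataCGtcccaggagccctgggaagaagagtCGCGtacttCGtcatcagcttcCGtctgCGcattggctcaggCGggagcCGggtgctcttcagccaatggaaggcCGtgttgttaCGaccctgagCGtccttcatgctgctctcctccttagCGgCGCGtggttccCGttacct
Entpd1 downstream start: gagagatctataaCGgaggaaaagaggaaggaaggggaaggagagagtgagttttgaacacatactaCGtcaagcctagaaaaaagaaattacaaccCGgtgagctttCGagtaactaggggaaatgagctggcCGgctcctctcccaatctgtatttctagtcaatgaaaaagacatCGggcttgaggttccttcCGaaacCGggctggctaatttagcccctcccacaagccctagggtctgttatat
Entpd2 start: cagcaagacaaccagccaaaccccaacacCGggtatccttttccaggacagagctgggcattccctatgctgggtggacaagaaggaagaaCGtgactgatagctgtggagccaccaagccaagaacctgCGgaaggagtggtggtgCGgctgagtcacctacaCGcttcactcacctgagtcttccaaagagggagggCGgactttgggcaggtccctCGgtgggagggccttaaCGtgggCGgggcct
The upstream start of Entpd1 held 18 CG dinucleotides with 62.4% GC, the downstream start 8 with 47.2%, and that of Entpd2 9 with 59.2%. The median over all 32851 such windows was 6 CG dinucleotides and 52.4% GC. Counts summed over the gene do not say which start was used. Neither GAGGAAGT, a binding sequence of the myeloid factor PU.1, nor TATAAA, the TATA box, occurred on either strand of the 18 windows of the 9 genes that have one. Of all windows 2.44% held the first and 12.4% the second. At such shares a lack of hits in 18 windows, many of them of Slc29a1, says little. Only these exact letters were searched.

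Nt5e encodes CD73, which turns AMP into adenosine (ENSMUSG00000032420, chromosome 9, 88327197 to 88372092, plus strand). KI libraries held 44 (KI 513), 12 (KI 526), 35 (KI 528) and 88 reads (KI 549), or 0.983, 0.226, 0.777 and 1.63 CPM. WT libraries held 74 (WT 503), 37 (WT 504), 141 (WT 506) and 11 reads (WT 527), or 1.35, 0.794, 2.84 and 0.218 CPM. Levels differed 7.22-fold within KI and 13.02-fold within WT, and the groups overlapped. The log2 fold change of -0.52 had a 95% interval of -2.27 to 1.22 (adjusted p = 0.936 by edgeR), and it turned to 0.20 without WT 506.

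Enpp1 cleaves ATP directly into AMP and pyrophosphate and also degrades the cyclic dinucleotide cGAMP (ENSMUSG00000037370, chromosome 10, 24637914 to 24712159, minus strand). It had 62.0 (KI 513), 63.2 (KI 526), 51.3 (KI 528) and 52.7 CPM (KI 549) in KI libraries, against 37.8 (WT 503), 49.0 (WT 504), 49.7 (WT 506) and 49.4 CPM (WT 527) in WT libraries. In CPM all KI libraries lay above all WT libraries, KI 528 by a small margin over WT 506. In deposited FPKM the groups overlapped, with 4.93 in KI 528 against 4.97 in WT 506. The means were 57.3 ± 6.16 CPM in KI and 46.5 ± 5.77 in WT (SD, n = 4 each), a log2 fold change of 0.30 (SE 0.120, 95% interval 0.04 to 0.57). It did not pass after adjustment (edgeR adjusted p = 0.600, and DESeq2 adjusted p = 0.292). WT 503 was the lowest, and leaving it out gave 0.22.

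The FPKM of Entpd1 stood at 42.6 (KI 513), 41.0 (KI 526), 58.2 (KI 528) and 59.6 times (KI 549) that of Enpp1 in KI libraries, against 80.8 (WT 503), 66.0 (WT 504), 61.7 (WT 506) and 67.8 times (WT 527) in WT libraries. This ratio was lower in every KI library than in any WT library. It was formed after the levels were seen and was not tested.

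**Figure D2:**
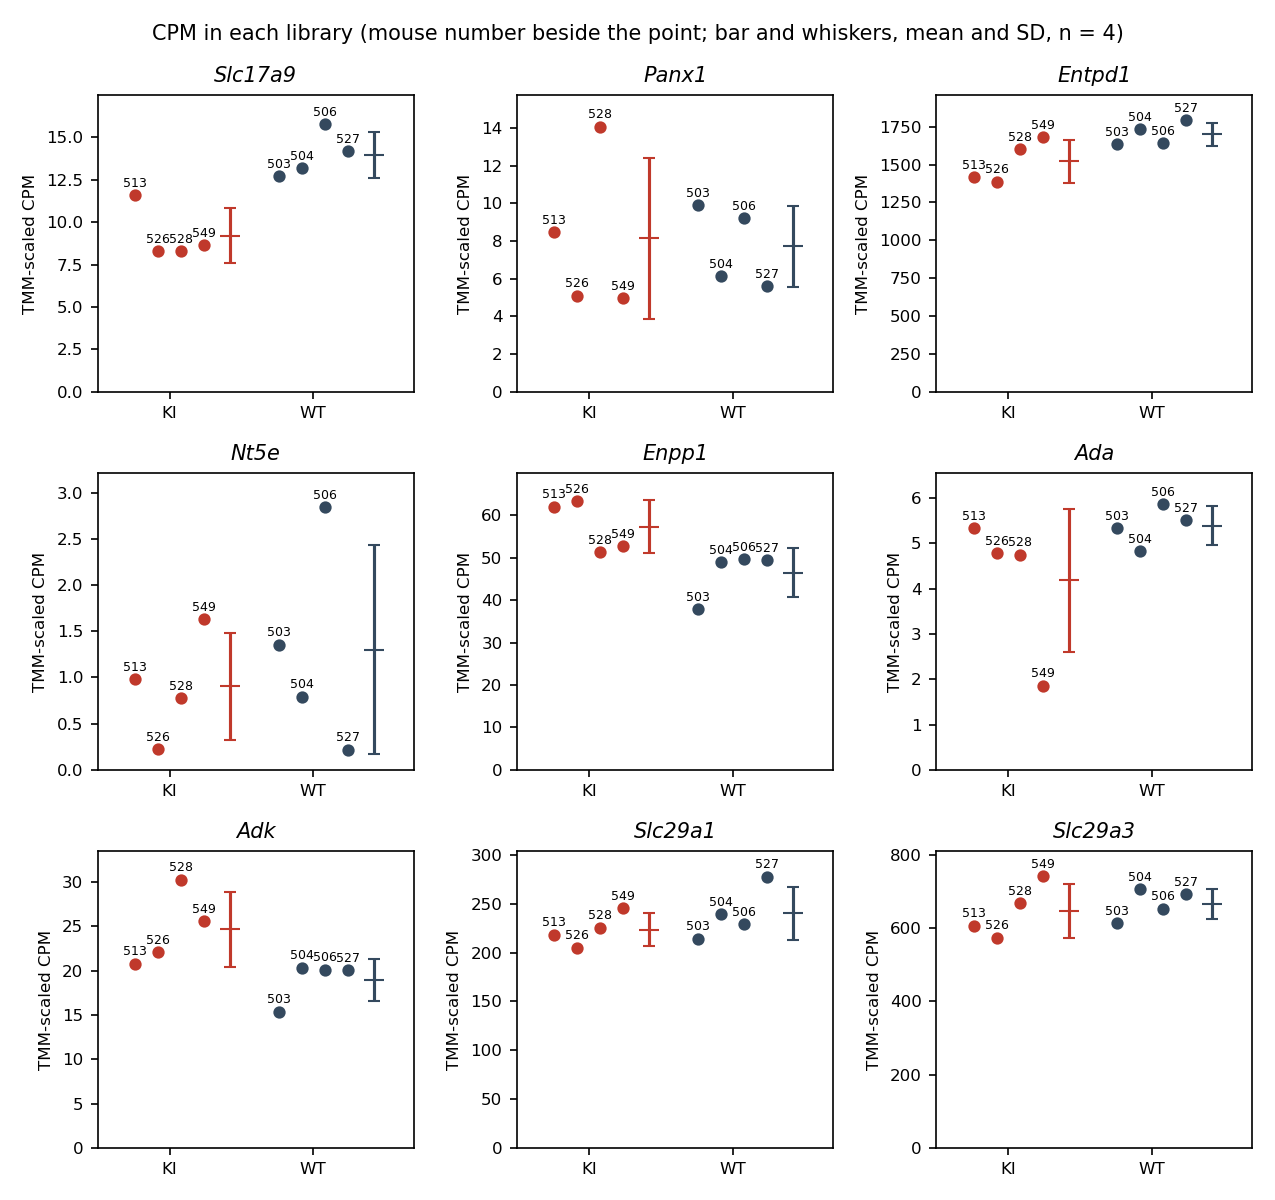
TMM-scaled CPM of the 9 tested genes in each library, KI left of WT, with the mouse number at each point and the mean and SD of the 4 libraries beside them, on axes that start at 0. Slc17a9 lies lower, and Enpp1 and Adk higher, in all 4 KI libraries than in any WT library, and the other 6 genes overlap.

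Adenosine is removed in cells by 2 enzymes. Adk, adenosine kinase, returns it to AMP (ENSMUSG00000039197, chromosome 14, 21052574 to 21448569, plus strand). It had 20.8 (KI 513), 22.1 (KI 526), 30.3 (KI 528) and 25.6 CPM (KI 549) in KI libraries, against 15.4 (WT 503), 20.4 (WT 504), 20.1 (WT 506) and 20.1 CPM (WT 527) in WT libraries. All KI libraries lay above all WT libraries, KI 513 just above WT 504. The means were 24.7 ± 4.24 CPM in KI and 18.97 ± 2.40 in WT (SD, n = 4 each), a log2 fold change of 0.38 (SE 0.158, 95% interval 0.03 to 0.73). It did not pass after adjustment (edgeR adjusted p = 0.609, and DESeq2 adjusted p = 0.282). Without KI 528, the highest library, the log2 fold change was 0.27, and the part of that library's other-cell markers in it was not tested.

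Ada, adenosine deaminase, turns adenosine into inosine (ENSMUSG00000017697, chromosome 2, 163726584 to 163750239, minus strand). It had 5.34 (KI 513), 4.79 (KI 526), 4.75 (KI 528) and 1.86 CPM (KI 549) in KI libraries, against 5.33 (WT 503), 4.83 (WT 504), 5.86 (WT 506) and 5.51 CPM (WT 527) in WT libraries. KI 549 stood alone with 100 reads, KI 513 lay among the WT libraries, and KI 526 and KI 528 lay just under the lowest of them. The means of 4.18 ± 1.57 CPM in KI and 5.38 ± 0.431 in WT (SD, n = 4 each) gave a log2 fold change of -0.37 (95% interval -1.07 to 0.34, adjusted p = 0.856 by edgeR), which was -0.12 without KI 549. The ratio of Adk to Ada in FPKM was 0.848 (KI 513), 1.004 (KI 526), 1.39 (KI 528) and 3.0001 (KI 549) in KI libraries, against 0.629 (WT 503), 0.917 (WT 504), 0.745 (WT 506) and 0.792 (WT 527) in WT libraries. The ratio of KI 513 fell among the WT values, so the groups overlapped.

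The 2 transporters differ in where they work. Slc29a1 encodes ENT1, an equilibrative nucleoside transporter of the plasma membrane (ENSMUSG00000023942, chromosome 17, 45585200 to 45599606, minus strand). KI libraries held 218 (KI 513), 205 (KI 526), 225 (KI 528) and 245 CPM (KI 549), against 214 (WT 503), 239 (WT 504), 229 (WT 506) and 278 CPM (WT 527) in WT libraries. The groups overlapped, with WT 527 highest, and the log2 fold change was -0.10 (95% interval -0.30 to 0.10, adjusted p = 0.854 by edgeR). Slc29a1 shares 275 exon bases with the antisense gene Gm17080, which held 100 reads over the 8 libraries. Counting used no strand option, so reads in the shared stretch are assigned to neither gene. The level of Slc29a1 may thus be understated.

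Slc29a3 encodes ENT3, a nucleoside transporter of lysosomes and other inner membranes (ENSMUSG00000020100, chromosome 10, 60712072 to 60752794, minus strand). KI libraries held 606 (KI 513), 573 (KI 526), 667 (KI 528) and 741 CPM (KI 549), against 614 (WT 503), 706 (WT 504), 652 (WT 506) and 691 CPM (WT 527) in WT libraries. KI 526 was lowest and KI 549 highest of all 8, so the KI libraries enclosed the WT libraries. The log2 fold change was -0.04 (95% interval -0.23 to 0.15, adjusted p = 0.956 by edgeR). In every library the transcript of the lysosomal transporter was above that of the plasma membrane one in FPKM. The ratio was 1.95 ± 0.0809 in KI and 1.89 ± 0.138 in WT (SD, n = 4 each), with overlapping groups. It depends on the exon lengths used, 5834 bases for Slc29a3 with 5 annotated transcripts and 4008 for Slc29a1 with 25.

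**Figure D3:**
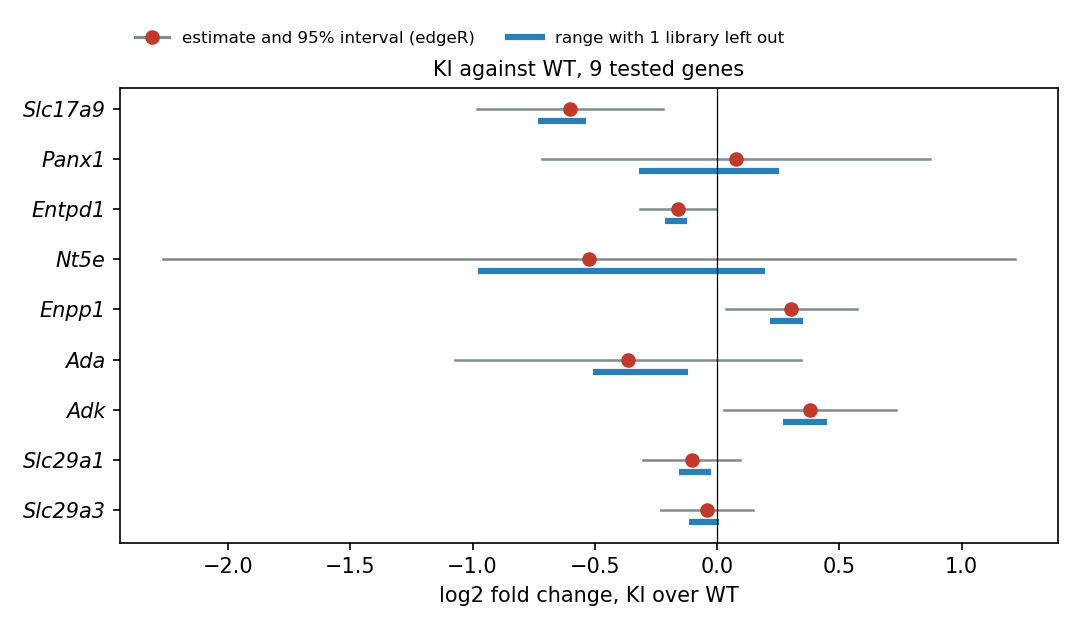
Log2 fold changes of the 9 tested genes, KI over WT, with 95% intervals from the edgeR fit (grey) and the range of the estimate when each of the 8 libraries is left out in turn (blue). The intervals of Slc17a9, Entpd1, Enpp1 and Adk lie to one side of 0 before any adjustment, and the blue ranges of Panx1, Nt5e and Slc29a3 cross 0.

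The spread between libraries also differed among the genes. So did the reads behind it, from 11 to 141 a library for Nt5e to 63311 to 90661 for Entpd1. The part of counting error in the spread was not tested. For Entpd1 the coefficient of variation was 9.41% within KI and 4.48% within WT, and for Slc29a3 it was 11.4% within KI and 6.21% within WT. For Ada it was 37.6% within KI, where KI 549 stood alone, and 8.01% within WT. For Panx1 it was 52.3% within KI and 27.9% within WT, and for Nt5e 64.2% within KI and 86.5% within WT. Slc17a9 had 17.4% within KI and 9.73% within WT, and Adk 17.2% within KI and 12.6% within WT. Enpp1 had 10.7% within KI and 12.4% within WT, and Slc29a1 7.54% within KI and 11.3% within WT. Of the 9 genes with reads in every library, WT 506 held the highest level of 3 and KI 526 the lowest level of 3, so no single library was at one end for most of them.

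The other genes of the pathway were read from 3 lists with 70 names, of which 69 were matched and 44 passed the filter on low counts. None was called by the edgeR quasi-likelihood test. Of the 44, 22 lay above and 22 below 0, and 0 higher and 2 lower genes had an unadjusted p under 0.05, near the 4.56% of all genes that were lower. Of 32 genes of these lists with a mean of 5 CPM or more, 2 had groups that did not overlap, near the 6.05% of all genes. They were Ahcyl2 and Lrrc8c, a subunit of volume-regulated anion channels, both lower in KI, and Lrrc8c was named after its values were seen. The median was -0.12 for 10 tested genes of other release channels, -0.08 for 13 other nucleotidases and 0.10 for 21 other adenosine and purine salvage genes, against 0.00 for all genes.

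Among release channels, Lrrc8a, the essential subunit of volume-regulated anion channels, had the highest CPM. It averaged 218 ± 13.8 CPM in KI and 193 ± 30.3 in WT (SD, n = 4 each), with a log2 fold change of 0.17 (edgeR adjusted p = 0.748). Vdac1, a channel of the outer mitochondrial membrane, had a log2 fold change of -0.05 and Ano6, a lipid scramblase, of -0.02. Vamp7, a vesicle fusion protein, was listed at 0 reads in all libraries. Whether the transcript was absent or its reads were not assigned to the gene was not tested.

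Among nucleotidases, Nt5c2, a cytosolic enzyme acting on IMP and GMP, averaged 55.9 ± 11.1 CPM in KI and 53.7 ± 3.55 in WT (SD, n = 4 each). The log2 fold changes were 0.06 for Nt5c2, 0.01 for Enpp4 and 0.05 for Entpd7, an intracellular relative of CD39. Entpd4 and its near-identical copy Entpd4b were both listed at 0 reads, and reads that fit copies equally well make such values uncertain.

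In the salvage list, Ampd2, an AMP deaminase that makes IMP, had a lower mean in KI. It held 3.46 (KI 513), 1.696 (KI 526), 2.82 (KI 528) and 4.56 CPM (KI 549) in KI libraries, against 4.32 (WT 503), 6.76 (WT 504), 5.86 (WT 506) and 7.38 CPM (WT 527) in WT libraries. KI 549 overlapped WT 503, and the log2 fold change was -0.95 (95% interval -1.68 to -0.23, edgeR adjusted p = 0.565). Ahcyl2, a relative of the enzyme that frees adenosine from S-adenosylhomocysteine, averaged 28.1 ± 2.40 CPM in KI and 34.8 ± 2.802 in WT (SD, n = 4 each) without overlap. Its log2 fold change was -0.31 (edgeR adjusted p = 0.584). Xdh, xanthine dehydrogenase, was named after its values were seen. Its log2 fold change of 1.93 rested on 122 reads in KI libraries and 33 in WT libraries and did not pass (edgeR adjusted p = 0.677). The groups overlapped, with 0.0557 CPM in KI 549 and 0.377 in WT 527. Below the filter on low counts, reads of Cd38 (10 in KI, 189 in WT) and Ak4 (6 in KI, 106 in WT) went the other way. These genes too were named after their values were seen.

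**Figure D4:**
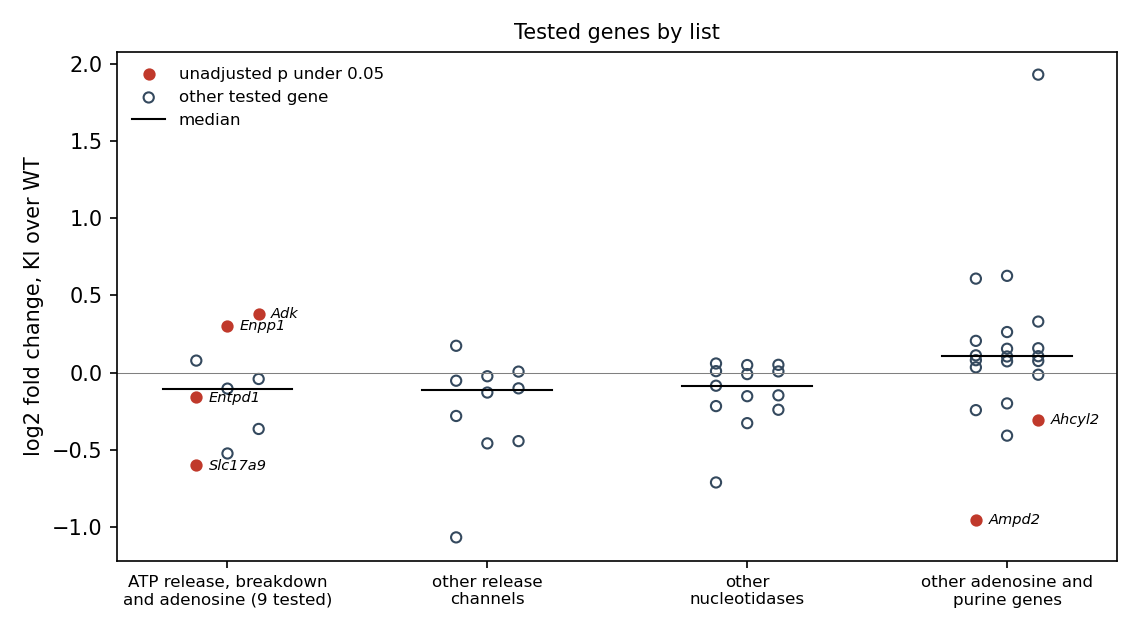
Log2 fold changes, KI over WT, of the tested genes in each list, with the median as a black bar, genes with an unadjusted p under 0.05 filled and named, and the others open. The medians lie at -0.10, -0.12, -0.08 and 0.10, and the highest open point, at 1.93, is Xdh.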

How the data were processed

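RNA sequencing was carried out on microglia sorted from the spinal cords of 4 KI and 4 WT female mice, grouped by the labels. The mm10 build, the aligner STAR 2.7.5c, the counter featureCounts 2.0.3, SAMtools 1.9 and the packages limma and edgeR under R 3.6.0 are named in the submitters' processing notes. Per the file headers, the deposited counts are featureCounts sums over exons by gene, with primary alignments only and no strand option. Both reads of a pair could be counted (68.9% to 70.8% of counts from 1 to 9 were even in each library). The authors also deposited FPKM, scaled to library total and exon length, and a normalized signal that is each count divided by 1 factor per library; multiplied back, 100% of its values were whole within 0.01. The signal was not used further. The 8 count columns that match no label were not used. Of the identifiers, 54495 were paired with a GENCODE M21 symbol, with the same coordinates for 98.3% of them.

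KI was tested against WT on the counts in R 4.3.3 by edgeR 4.0.16: TMM scaling, filterByExpr (minimum count 10, total 15), and the robust quasi-likelihood test with no covariate, at an adjusted p under 0.05. Each SE was derived from that fit as the absolute log2 fold change over the square root of its F statistic. The 95% intervals were built from it with t quantiles, so both are approximate. DESeq2 1.42.0, edgeR's likelihood ratio test, limma 3.58.1 (voom, and log2 of FPKM plus 1 or 0.1), other scalings, halved counts, no filter and leaving out each library were alternatives. DESeq2 with each library left out was added after seeing the data. The scripts were tested on simulated data. The 10 genes and the lists were chosen with earlier results of these data known. Named beside the 10 were, per list, genes with an unadjusted p under 0.05, or else the 3 with the highest CPM. Each library is a separate mouse per the labels.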

Additional observations from a re-analysis of the deposited data

Results flagged for a closer look

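Single libraries stood apart from the other 3 of their group in 4 of the 18 sets of 4 values examined. Chance gives about 1 in 20 for independent sets of normally distributed values. These sets share the same 8 libraries, and 2 of the 4 came from WT 503, so that share is only a rough guide. The gap to the nearest library made up most of the group's range in each. Slc17a9 was at 11.6 CPM in KI 513, nearer to the WT libraries than the other KI libraries were. Ada was at 1.86 CPM in KI 549. Enpp1 was at 37.8 CPM and Adk at 15.4 CPM in WT 503, the library with the lowest level of both genes. These 2 are the genes whose KI libraries all lay above the WT libraries in CPM (in deposited FPKM, only Adk). Without WT 503 the log2 fold changes, KI over WT, were 0.22 for Enpp1 and 0.29 for Adk.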

How the results depend on the processing

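By the quasi-likelihood test 0 genes were called, against 248 by DESeq2 and 42 by edgeR's likelihood ratio test. DESeq2 called 1 of the 10 genes (Slc17a9), and from 0 to 1 with a library left out. The other alternatives called 0 of the 10, also with each library left out of the quasi-likelihood fit. Slc17a9, Entpd1, Enpp1, Ada, Adk and Slc29a1 kept their direction under all alternatives run. Panx1 turned to -0.061 with limma-voom and -0.019 on log2(FPKM + 0.1), and with a library left out it ranged from -0.32 to 0.25 (DESeq2, -0.32 to 0.25, with -0.019 without WT 504 and -0.046 without WT 527). Nt5e then ranged from -0.98 to 0.20 (DESeq2, -0.98 to 0.19) and Slc29a3 from -0.11 to 0.0086 (DESeq2, -0.11 to 0.011), and the cause was not tested. Without an unadjusted p under 0.05 were 5 of 8 left-out fits for Entpd1 and 3 each for Enpp1 and Adk, while Slc17a9 kept it in 8 of 8. On log2(FPKM + 1) and log2(FPKM + 0.1) 2 of the 10 genes had it, Slc17a9 and Entpd1, against 4 in the quasi-likelihood fit. With a minimum mean of 1 CPM, 729 of 13522 genes had groups that did not overlap, against 615 of 10171. The groups of Slc17a9 and Adk stayed apart in CPM and in deposited FPKM, those of Enpp1 in CPM only. No paired analysis was possible because the groups share no mouse number. Entpd2 had the fewest reads of the 10 genes. Whether depth, unassigned reads or absence of the transcript lay behind this was not tested.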
